A study of Oryctolagus cuniculus with 18 samples.

Results

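Transcripts of the beta 1 integrin chain, of 5 alpha chains that pair with it and of focal adhesion kinase were measured in aortic tissue of 18 rabbits, 9 control and 9 atherosclerotic. The members were taken by symbol from a rabbit wound healing PCR array, ITGB1, ITGA1, ITGA2, ITGA4, ITGA5, ITGA6 and PTK2, which makes 7 of the 84 genes of interest on the array. All 18 animals were male New Zealand White rabbits, 11 weeks old when they were randomized, and the tissue was the lower abdominal aorta. The control group received normal chow and no surgery. The atherosclerotic group received a diet with 0.30% cholesterol for 8 weeks and with 0.15% cholesterol for a further 12 weeks, and the inner lining of the aorta was scraped by an inflated balloon catheter, once from each leg. Every atherosclerotic rabbit had both the diet and the injury, so the effects of these cannot be told apart.

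Integrins are membrane receptors built of an alpha and a beta chain, and they tie the cytoskeleton of a cell to the matrix around it or to a neighbouring cell. The beta 1 chain has the widest choice of partners, and the alpha chain sets the ligand. Alpha 1 and alpha 2 make collagen receptors, alpha 5 the classical fibronectin receptor and alpha 6 a laminin receptor, while alpha 4 binds VCAM1 on activated endothelium and a splice form of fibronectin. Alpha 1 beta 1 is the usual collagen receptor of contractile smooth muscle in the vessel wall, and alpha 4 beta 1 is the receptor by which monocytes and lymphocytes attach to inflamed vessels. Alpha 6 also pairs with beta 4, and alpha 4 with beta 7. PTK2 encodes focal adhesion kinase, which is recruited to the inner side of bound integrins and starts signalling there.

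Expression was read as the threshold cycle (Ct), the PCR cycle in which the fluorescence of a well passes a set level, so a lower Ct means more transcript. The deposited ratio is 2 to the power of the reference level minus the Ct of the gene, where the reference level is the mean Ct of 5 reference genes of the same rabbit. A ratio of 1 therefore means as much signal as the reference level, and 1 unit of its log2 is a doubling. Each gene was read in 1 well per rabbit and all 126 wells of the members had a Ct below 35, the ceiling of the deposited values, with a range of 19.8 to 33.6. The reference level ran from 22.00 to 24.53 cycles in the control group and from 19.79 to 23.65 in the atherosclerotic group, and control rabbit 3 and atherosclerotic rabbit 20 held the 2 extremes. Contractile smooth muscle markers (ACTA2, TAGLN and ACTC1, 3 of 3 on the array) had summed ratios of 25.2 to 36.9 in the control group and of 1.31 to 13.6 in the atherosclerotic group. Leukocyte markers (TLR4, TNF, IL10, IL1B, CD40LG, MMP9 and CTSK, 7 of 7 on the array) summed to 0.468 to 0.996 in the control group, where TNF was at the ceiling in every rabbit, and to 3.34 to 7.27 in the atherosclerotic group. The leukocyte sum is nearly all CTSK, with mean ratios of 0.719 in control and 4.88 in atherosclerotic rabbits, against 0.200 for TLR4 and less for each other marker in the latter. By staining, the paper saw no macrophages in control arteries, where CTSK still gave this signal. The sum may therefore not measure leukocytes alone. The only epithelial marker on the array, ITGB6, was at the ceiling in all 18 rabbits. RNA came from whole pieces of aorta, in which fewer cells of a type and less RNA per cell cannot be told apart. The smooth muscle and leukocyte sums both differed between the groups, and their part in the differences given here was not tested.

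All 7 members passed an adjusted p of 0.05 (limma on the log2 ratio, Benjamini-Hochberg over the 84 genes). ITGA2, ITGA4 and ITGA6 were higher in the atherosclerotic group, and ITGB1, ITGA1, ITGA5 and PTK2 were lower, of which PTK2 lost its call and turned in sign, to 0.053, once LDHA was dropped from the reference genes. Over the whole array, 38.1% of genes were higher and 22.6% lower. The median log2 difference was -0.50 over the 7 members and 0.37 over the 84 genes. For 3 members, ITGB1, ITGA1 and ITGA4, the groups did not overlap, as for 22.6% of the 84 genes.

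**Figure D1:**
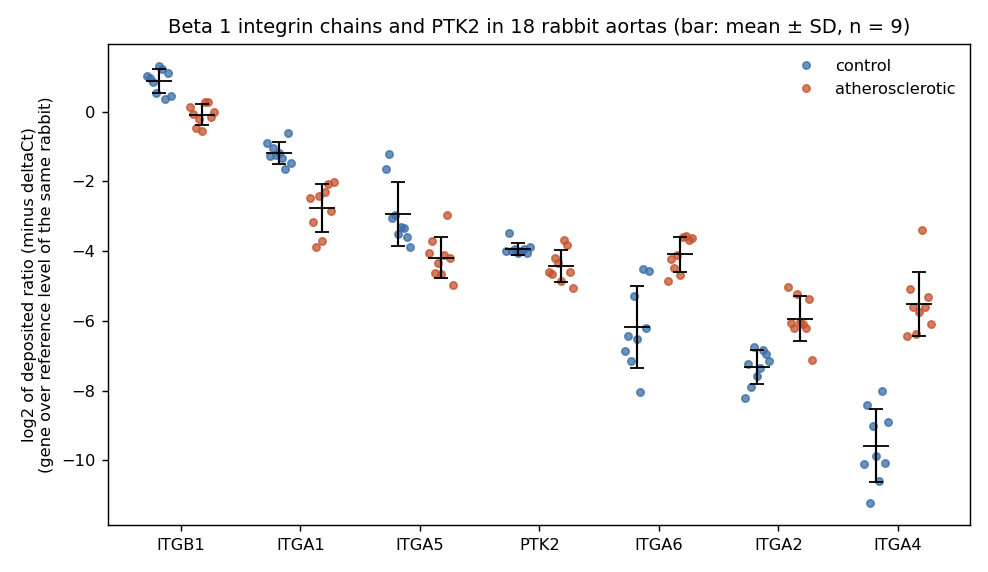
Deposited ratio on a log2 scale (y axis) of each member gene (x axis) in 9 control rabbits (blue) and 9 atherosclerotic rabbits (orange), 1 point per rabbit, with bars for the mean ± SD. ITGB1, ITGA1, ITGA5 and PTK2 lie lower in the atherosclerotic group (PTK2 turns to 0.053 without LDHA in the reference level), and ITGA6, ITGA2 and ITGA4 lie higher, ITGA4 by 4.06.

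ITGB1, the shared beta 1 chain, had the highest ratio of the members in all 18 rabbits. Its ratio ran from 1.29 to 2.48 in the control group, with a median of 1.96, and from 0.685 to 1.21 in the atherosclerotic group, with a median of 0.949. Every atherosclerotic rabbit lay below every control rabbit, and the range within each group was narrow, with the highest rabbit 1.93-fold above the lowest in the control group and 1.77-fold in the atherosclerotic group. ITGB1 fell by 0.96 on the log2 scale (SE 0.19, n = 9 and 9, limma adjusted p = 0.00017), and was 1.94-fold higher in the control group. Without LDHA among the reference genes the difference was -0.41 and passed the threshold only narrowly (limma adjusted p = 0.0498). The lowest control rabbits were 15 and 21, at 1.29 and 1.36, and the highest atherosclerotic rabbits were 12 and 14, both at 1.21.

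ITGA1, the collagen-binding alpha chain of contractile smooth muscle, was lower in the atherosclerotic group. Its ratio was 0.317 to 0.649 in the control group (median 0.418) and 0.0680 to 0.249 in the atherosclerotic group (median 0.178), again with no overlap. The log2 difference was -1.58 (SE 0.26, limma adjusted p = 2.6e-05; exact two-sided permutation p = 4.1e-05, the smallest that 9 against 9 rabbits allow), a level 2.99-fold higher in the control group. The atherosclerotic rabbits spread more widely than the controls, 3.66-fold against 2.05-fold from lowest to highest. Rabbits 6 and 10 held the lowest ITGA1 ratios, 0.0680 and 0.0761, and rabbits 14 and 20 the highest, 0.235 and 0.249. The smooth muscle sum was also lowest in rabbits 10 and 6, at 1.31 and 1.71, and highest in rabbits 20 and 14, at 13.6 and 8.18.

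ITGA2, the other collagen-binding chain on the array, moved in the opposite direction. The ratio was 0.00340 to 0.00924 in control aortas (median 0.00668) and 0.00720 to 0.0304 in atherosclerotic aortas (median 0.0148). In 8 of the 9 atherosclerotic rabbits it was above every control rabbit, the exception being rabbit 20. ITGA2 rose by 1.39 (SE 0.27, limma adjusted p = 0.00016), or 2.63-fold. This call rested on the reference level, since with ACTA2 left out of it the difference was 0.57 (limma adjusted p = 0.063).

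ITGA5, the fibronectin-binding chain, was lower in the atherosclerotic group. It ranged from 0.0671 to 0.434 in the control group (median 0.101) and from 0.0317 to 0.128 in the atherosclerotic group (median 0.0544), and 7 atherosclerotic rabbits lay below every control rabbit. The log2 difference was -1.24 (SE 0.35, limma adjusted p = 0.0043), 2.37-fold higher in the control group. Control rabbits 3 and 1 stood well above the other controls, at 0.434 and 0.321, and the difference was -1.03 (adjusted p = 0.0071) without rabbit 3. Without LDHA among the reference genes it was -0.69 (limma adjusted p = 0.088).

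ITGA6, the laminin-binding chain, rose by 2.08 (SE 0.41, limma adjusted p = 0.00016), or 4.24-fold. Control rabbits had ratios of 0.00378 to 0.0440 with a median of 0.0115, an 11.6-fold spread and the widest of the members in the control group. Atherosclerotic rabbits lay between 0.0346 and 0.0836 with a median of 0.0573, a spread of 2.41-fold, and 7 of them were above every control rabbit. The overlap came from control rabbits 15 and 21, at 0.0440 and 0.0422. The same 2 rabbits had the lowest ITGB1 and ITGA1 ratios of the control group.

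ITGA4, the chain that leukocytes use to bind VCAM1, had the largest difference of the members. It was at the bottom of the range in control aortas, with ratios of 0.000418 to 0.00389 and a median of 0.00106, and all 9 wells still had a Ct below 35. In atherosclerotic aortas it ran from 0.0117 to 0.0954 with a median of 0.0205, and the groups did not overlap. ITGA4 rose by 4.06 (SE 0.44, limma adjusted p = 1.2e-07; exact two-sided permutation p = 4.1e-05), or 16.7-fold. Atherosclerotic rabbit 12 was far above the rest of its group, at 0.0954 against 0.0295 in the next rabbit, and leaving out single rabbits kept the difference between 3.80 and 4.26. The leukocyte sum of rabbit 12 was only 3.405, near the lowest of the group, 3.335 in rabbit 20. Rabbit 4, the next in ITGA4, had the highest leukocyte sum, 7.27.

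PTK2, the kinase that acts below all of these receptors, had the smallest difference against the deposited reference level. This did not hold without ACTA2, where it was -1.32 and that of ITGA2 was 0.57. Nor did it hold with the mean Ct of genes detected in every rabbit as reference, where PTK2 was at -1.07 and ITGA2 at 0.83. Control rabbits were tightly grouped between 0.0602 and 0.0887 with a median of 0.0628, and rabbit 3 alone was above 0.0676. Atherosclerotic rabbits ranged from 0.0298 to 0.0775 with a median of 0.0415, and 7 of them were below every control rabbit. The log2 difference of -0.50 (SE 0.20) passed the threshold narrowly (limma adjusted p = 0.035), and was 0.053 (adjusted p = 0.83) when the reference level excluded LDHA and -0.21 (adjusted p = 0.32) when it excluded GAPDH. The call was also lost without LOC100346936 (-0.44, adjusted p = 0.088). Leaving out control rabbit 3 also ended the call (-0.44, adjusted p = 0.063), as did leaving out atherosclerotic rabbit 2 (-0.48, adjusted p = 0.057), 4 (-0.47, adjusted p = 0.058), 10 (-0.44, adjusted p = 0.066) or 18 (-0.48, adjusted p = 0.059).

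Before any normalization the mean Ct differed in the same directions. It was later in the atherosclerotic group by 1.00 cycles for ITGB1, 1.62 for ITGA1, 1.28 for ITGA5 and 0.54 for PTK2, and earlier by 1.35 for ITGA2, 2.04 for ITGA6 and 4.02 for ITGA4. In exact two-sided permutation tests of the raw Ct, not adjusted over the 7 genes, ITGA4 gave p = 4.1e-05 and ITGA1 p = 0.017, ITGA2, ITGA5 and ITGA6 lay between 0.0051 and 0.0065, and ITGB1 (p = 0.054) and PTK2 (p = 0.19) did not pass 0.05. In the same exact permutation tests of the raw Ct, the reference genes ACTA2 (later by 2.95 cycles, p = 0.0029), LDHA (earlier by 2.49, p = 4.1e-05) and GAPDH (earlier by 1.07, p = 0.0060) differed between the groups, and ACTB (p = 0.19) and LOC100346936 (p = 0.60) did not pass 0.05. Other choices among the 5 shifted the median of all 84 genes by -0.82 (without ACTA2) to 0.55 (without LDHA). Relative to the median of all 84 genes, which does not depend on the reference level, the differences were -1.33 for ITGB1, -1.95 for ITGA1, -1.61 for ITGA5, -0.87 for PTK2, 1.02 for ITGA2, 1.71 for ITGA6 and 3.69 for ITGA4. Over the whole array the split of 32 higher and 19 lower genes became 22 and 34 without ACTA2, 47 and 10 without LDHA, 28 and 23 without both, 40 and 16 without GAPDH, and 27 and 29 when the average Ct of the 63 genes with a Ct below 35 in all rabbits served as reference.

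**Figure D2:**
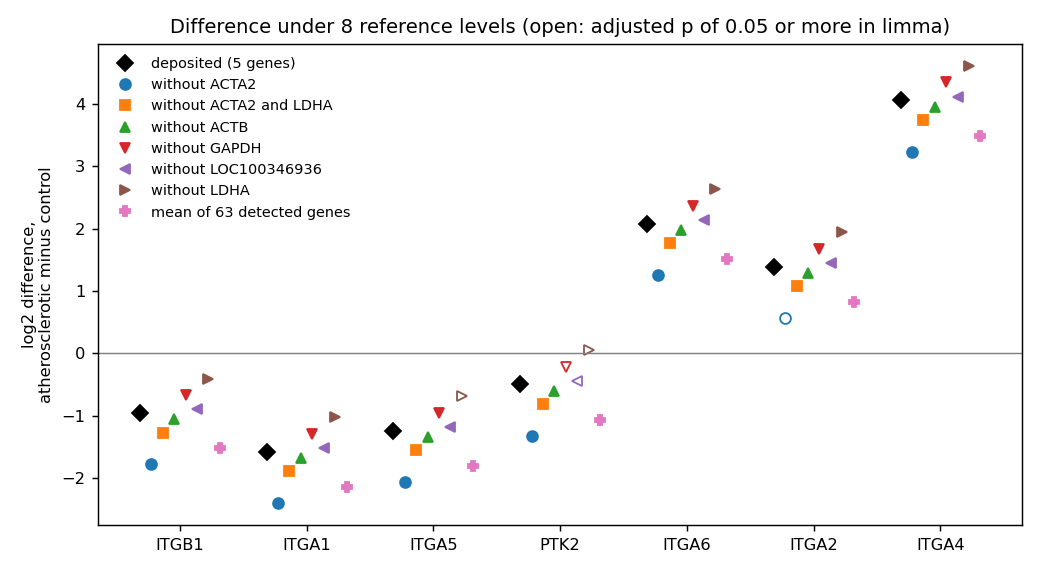
Log2 difference, atherosclerotic minus control (y axis), of each member (x axis) under the deposited reference level (black diamonds) and 7 others, with open symbols for an adjusted p of 0.05 or more in limma. The members shift together as the reference genes change, ITGA4 stays between 3.24 and 4.62, ITGA1 between -2.40 and -1.03, and PTK2 runs from -1.32 to 0.053.

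A ratio of 2 genes of the same rabbit does not contain the reference level, so the make-up of the receptor transcripts was compared in this way. All 3486 pairs of the 84 genes were fitted with limma and adjusted together, and 66.9% of them differed between the groups. Of the 21 pairs among the members, 15 differed, a share close to that of all pairs. The groups did not overlap in 10 of the 21, against 25.2% of all pairs. Because each assay amplifies with its own efficiency, the levels of these ratios are orders of PCR signal and not of molecules, and the size of a difference assumes that every assay doubles in each cycle.

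The leukocyte-type chain gained most on ITGB1. ITGA4/ITGB1 was 0.000233 to 0.00302 in control rabbits (median 0.000449) and 0.0107 to 0.0786 in atherosclerotic rabbits (median 0.0270). The groups did not overlap, and the log2 difference was 5.02 (SE 0.50, limma adjusted p = 3.0e-08 over all pairs), or 32.5-fold. ITGA6/ITGB1 rose by 3.04 (SE 0.50, adjusted p = 1.9e-05), from a control median of 0.00584 to 0.0661, with 8 of 9 atherosclerotic rabbits above every control rabbit. ITGA2/ITGB1 rose by 2.35 (SE 0.37, adjusted p = 1.1e-05), from a control range of 0.00167 to 0.00675 to a range of 0.00724 to 0.0306, with no overlap. Part of each of these differences is the fall of ITGB1 itself.

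For the members that were lower in the atherosclerotic group, no difference in the ratio to ITGB1 passed the threshold in limma (PTK2, 1 of them, turns in sign without LDHA as above). ITGA5/ITGB1 had a median of 0.0675 in control and 0.0567 in atherosclerotic rabbits, and the difference of -0.29 had a 95% interval from -1.06 to 0.49 (adjusted p = 0.51). PTK2/ITGB1 differed by 0.46 (interval -0.12 to 1.04, adjusted p = 0.15), with 4 atherosclerotic rabbits above every control rabbit, and was called in exact permutation tests adjusted over all pairs (adjusted p = 0.049) and with array weights (0.56, adjusted p = 0.039). ITGA1/ITGB1 ran from 0.170 to 0.304 in control rabbits (median 0.262) and from 0.0947 to 0.250 in atherosclerotic rabbits (median 0.163), with 6 atherosclerotic rabbits below every control rabbit. Its difference of -0.62 (SE 0.28) stood just outside the threshold in limma (interval -1.19 to -0.049, adjusted p = 0.052), while exact permutation tests adjusted over all pairs gave an adjusted p = 0.0083. The call was gained when control rabbit 3 (-0.64), 11 (-0.68) or 13 (-0.68) or atherosclerotic rabbit 8 (-0.68), 14 (-0.66) or 20 (-0.71) was left out, with adjusted p from 0.0199 to 0.05. It was also gained with array weights (-0.74, adjusted p = 0.0085) and among pairs of genes with a Ct below 35 in all rabbits (-0.62, adjusted p = 0.036).

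**Figure D3:**
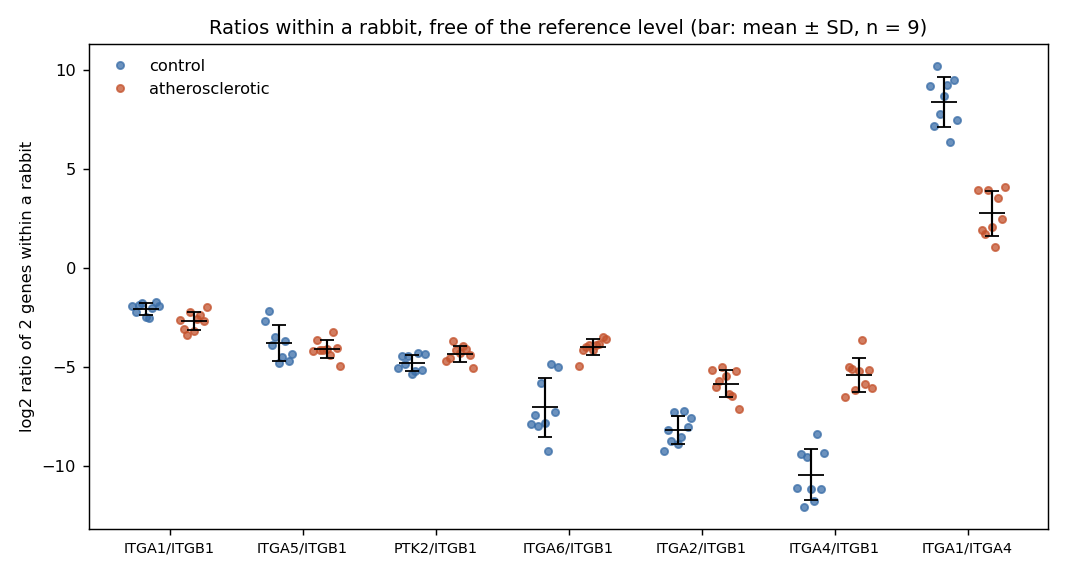
Log2 ratio of 2 genes within a rabbit (y axis) for each member over ITGB1 and for ITGA1 over ITGA4 (x axis), 9 control rabbits (blue) and 9 atherosclerotic rabbits (orange), with bars for the mean ± SD. ITGA1/ITGB1, ITGA5/ITGB1 and PTK2/ITGB1 overlap between the groups, ITGA4/ITGB1 moves up by 5.02 and ITGA1/ITGA4 down by 5.64.

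The contrast of the smooth muscle type chain with the leukocyte type chain was the widest of the member pairs. In control aortas ITGA1 gave 81.6 to 1168 times the signal of ITGA4 (median 413), and in atherosclerotic aortas 2.10 to 16.9 times (median 5.46). No atherosclerotic rabbit reached the lowest control rabbit, yet ITGA1 stayed above ITGA4 in all 18 animals. The log2 difference was -5.64 (SE 0.54, 95% interval -6.77 to -4.51, limma adjusted p = 1.6e-08 over all pairs; exact two-sided permutation p = 4.1e-05), a ratio 49.9-fold higher in the control group. It stayed between -5.90 and -5.42 when each rabbit was left out in turn. Most of the difference lay on the ITGA4 side, with 4.06 for ITGA4 and -1.58 for ITGA1 against the deposited reference level.

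**Figure D4:**
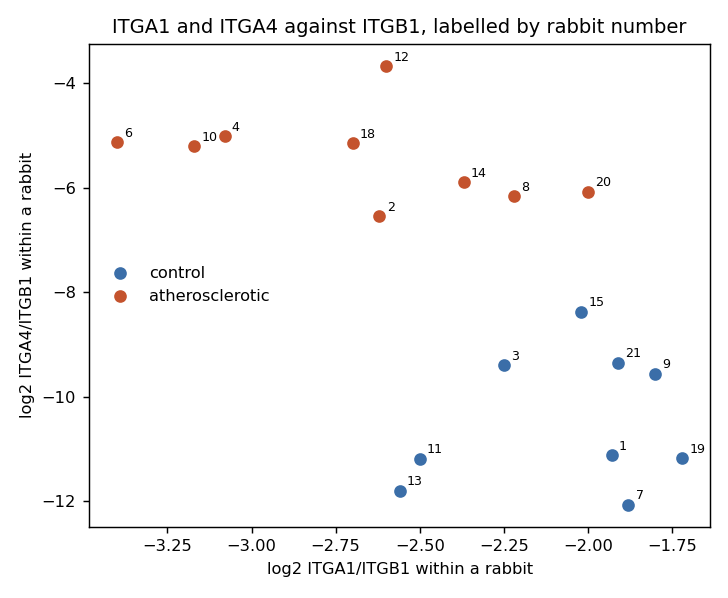
Log2 ITGA4/ITGB1 (y axis) against log2 ITGA1/ITGB1 (x axis) within each of 18 rabbits, labelled by rabbit number, control in blue and atherosclerotic in orange. The groups separate fully along the ITGA4 axis, with the lowest atherosclerotic rabbit at -6.55 and the highest control rabbit at -8.37, and overlap along the ITGA1 axis.

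Among the other pairs, every ratio of a chain that was higher to a gene that was lower differed, including ITGA2, ITGA4 and ITGA6 over PTK2, with log2 differences of 1.89, 4.56 and 2.58 and no overlap in any of these. Within the higher chains, ITGA4 rose more than ITGA6 by 1.98 (SE 0.39, adjusted p = 0.00016) and more than ITGA2 by 2.67 (SE 0.48, adjusted p = 5.6e-05), whereas ITGA2 and ITGA6 differed by 0.69 with an interval of -0.26 to 1.64 (adjusted p = 0.19). Within the lower genes, ITGA1 fell more than PTK2 by 1.08 (SE 0.33, adjusted p = 0.0070). ITGA1/ITGA5 differed by -0.34 (interval -1.19 to 0.52, adjusted p = 0.48). ITGA5/PTK2 differed by -0.74 (interval -1.49 to -0.0029, adjusted p = 0.071). It was called in exact permutation tests adjusted over all pairs (adjusted p = 0.042) and when control rabbit 21 was left out (-0.87, limma adjusted p = 0.035).

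**Figure D5:**
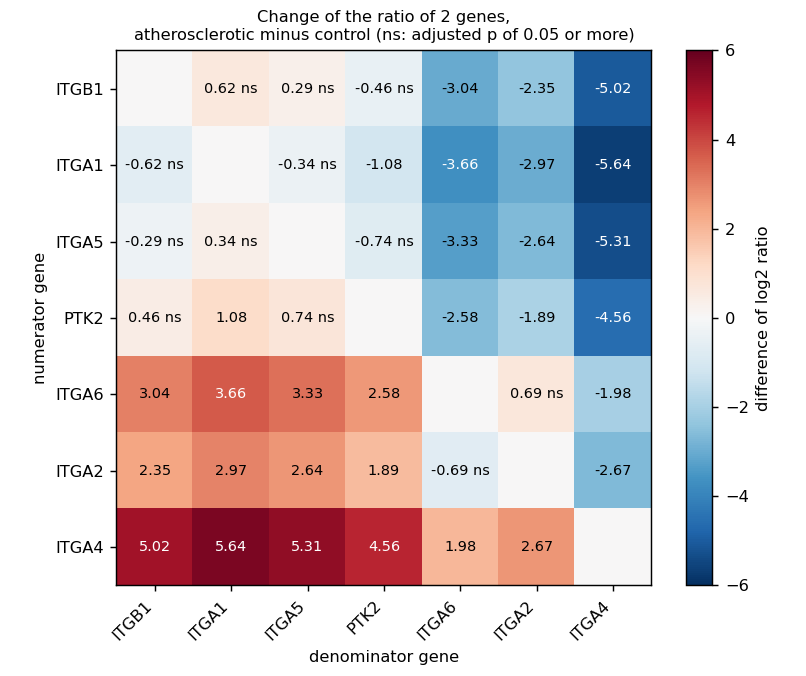
Difference between the groups, atherosclerotic minus control, in the log2 ratio of the row gene to the column gene for all pairs of members, red for higher and blue for lower, with ns where the limma adjusted p was 0.05 or more. The bottom row shows ITGA4 above every other member, from 1.98 against ITGA6 to 5.64 against ITGA1, and the 6 pairs marked ns are those within ITGB1, ITGA1, ITGA5 and PTK2, except ITGA1/PTK2, and the pair ITGA2/ITGA6.

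The order of signals within a rabbit changed at the lower end. In the control group the order of the mean log2 ratios was ITGB1 (0.87), ITGA1 (-1.19), ITGA5 (-2.94), PTK2 (-3.93), ITGA6 (-6.18), ITGA2 (-7.33) and ITGA4 (-9.58). In the atherosclerotic group it was ITGB1 (-0.087), ITGA1 (-2.77), ITGA6 (-4.09), ITGA5 (-4.19), PTK2 (-4.43), ITGA4 (-5.52) and ITGA2 (-5.93). ITGA2 gave more signal than ITGA4 in all 9 control rabbits and in 2 atherosclerotic rabbits, and ITGA6 more than PTK2 in 0 control rabbits and 7 atherosclerotic rabbits. ITGA5 was above ITGA6 in 9 control rabbits and 4 atherosclerotic rabbits, so that the neighbours ITGA6, ITGA5 and PTK2 had no fixed order in the atherosclerotic aorta. ITGA5 was above PTK2 in 8 control and 7 atherosclerotic rabbits.

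Set against TAGLN and ACTA2, which make up nearly all of the smooth muscle sum, the lower members fell less. TAGLN, which encodes the actin-binding protein transgelin, fell by 2.99 against the reference level (adjusted p = 2.8e-08), and ITGA1/TAGLN was higher in the atherosclerotic group by 1.41 (SE 0.27, adjusted p = 0.00011), with no overlap between the groups. ITGB1/TAGLN was higher by 2.03 (adjusted p = 7.4e-06) and PTK2/TAGLN by 2.49 (adjusted p = 1.3e-06), both without overlap, and ITGA5/TAGLN by 1.75 (adjusted p = 0.00040). The same held against ACTA2, smooth muscle actin, where ITGA1/ACTA2 was higher by 1.34 (exact two-sided permutation p = 0.00041). ACTC1, the other marker, fell by 1.03 against the reference level, with 8 control and 2 atherosclerotic wells below the ceiling.

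The rise of ITGA4 lay within the range of the leukocyte markers, as did those of ITGA6 (2.08) and ITGA2 (1.39). The markers ran from 1.24 for IL1B, the only one not called, to 5.30 for TLR4. Against each marker in the same rabbit, ITGA4 rose more than CD40LG by 2.29 (SE 0.44, adjusted p = 0.00012). ITGA4/IL1B differed by 2.82 (SE 0.74, adjusted p = 0.0021). ITGA4/TNF had a fitted difference of 1.73, and its direction is not settled because every control well of TNF was at the ceiling. ITGA4/IL10 (-0.093, adjusted p = 0.87) and ITGA4/MMP9 (-0.13, adjusted p = 0.84) were not called. In the control group 9 wells of TNF, 6 of MMP9, 2 of IL10 and 1 of IL1B were at the ceiling. The ceiling can only have raised the fitted values of these 4 ratios, and the same holds for the ratios of ITGA6 and ITGA2 to these markers. TLR4, the receptor for bacterial lipopolysaccharide, rose more, with a log2 difference of -1.24 for ITGA4/TLR4 (SE 0.37, adjusted p = 0.0055). CTSK, the collagen-degrading cathepsin K, rose less, and ITGA4/CTSK differed by 1.31 (SE 0.53, adjusted p = 0.035). ITGA6 rose less than TLR4 (-3.22), IL10 (-2.07) and MMP9 (-2.11), and its ratios to TNF (-0.25), IL1B (0.84), CD40LG (0.31) and CTSK (-0.67) were not called. ITGA2 rose less than TLR4 (-3.91), IL10 (-2.76), MMP9 (-2.80) and CTSK (-1.36), and its ratios to TNF (-0.94), IL1B (0.15) and CD40LG (-0.38) were not called.

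The genes whose pattern over the 18 rabbits was most like each member, by the smallest SD of the log2 ratio among 62 candidates with a Ct below 35 in every rabbit, were different for each member. ITGB1 was closest to ITGAV, the alpha v chain (SD 0.26), and to PLOD2, a collagen lysyl hydroxylase (SD 0.33). ITGA1 was closest to EGFR (SD 0.38) and the growth factor FGF2 (SD 0.38), and PTK2 to the transcription factor STAT3 (SD 0.36). ITGA5 was closest to TGFB3 (SD 0.61) and COL5A1 (SD 0.65), and ITGA6 to IGF1 (SD 0.70) and LOC100354804 (SD 0.76). ITGA2 lay nearest to MAPK3 and GRB2 (SD 0.62 for both), and ITGA4 nearest to TLR4 (SD 0.94) and TIAM1 (SD 1.01). The median SD over the candidates was 1.16 for ITGB1, 1.27 for ITGA2, 1.28 for ITGA5, 1.51 for ITGA6 and 2.24 for ITGA4. The nearest gene to ITGA4 had a larger SD than the nearest gene of any other member, but ITGA4 also had the largest median SD.

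Of the other integrin chains, 3 of a list of 5 were on the array. The alpha v chain ITGAV fell by 0.86 (SE 0.21, limma adjusted p = 0.0011), a call that was lost without LDHA in the reference level (-0.31, adjusted p = 0.17), and the beta 5 chain ITGB5 fell by 1.55 (SE 0.30, adjusted p = 0.00012), and ITGB6 had no well below the ceiling. Of the 3, 2 were called lower, beside 22.6% of the 84 genes. The median difference over the 3, with ITGB6 at the ceiling counted in it, was -0.86, beside 0.37 over the 84 genes. ITGB1/ITGAV, the ratio of the beta 1 chain to one further alpha partner, differed by -0.094 (interval -0.61 to 0.42, adjusted p = 0.75). ITGA1/ITGAV had a log2 difference of -0.72 (SE 0.28, adjusted p = 0.030), while ITGA2, ITGA4 and ITGA6 over ITGAV were higher by 2.26, 4.93 and 2.95.

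Among the matrix ligands, 8 of a list of 13 were on the array, with 3 higher, 0 lower and 5 not called, and a median of -0.049, beside 38.1% higher and 22.6% lower and a median of 0.37 over the 84 genes. COL1A2, a chain of type I collagen and so a ligand of alpha 1 and alpha 2, rose by 1.61 (SE 0.29, limma adjusted p = 6.2e-05), from a median ratio of 0.271 to 0.682. COL5A3, a chain of type V collagen, rose by 3.07 (SE 0.54, adjusted p = 5.0e-05), and VTN, the alpha v ligand vitronectin, rose by 2.01 (SE 0.37, adjusted p = 8.4e-05), with 7 of 9 control wells below the ceiling for each. COL4A3, COL5A1, COL14A1, TNC and FGA differed by -0.67, -0.51, -0.056, -0.61 and -0.043 without passing the test. FGA had 2 control wells and 0 atherosclerotic wells below the ceiling, so its value follows the reference level and is no measured difference. The list depended on the reference level, as the other 4 genes without a call were called lower (FGA too, at the ceiling), and COL1A2 lost its call (0.78, adjusted p = 0.056), without ACTA2. COL5A1 was also called lower without control rabbit 21 (-0.66, adjusted p = 0.027) or atherosclerotic rabbit 4 (-0.64, adjusted p = 0.044).

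Of 10 signalling and cytoskeletal partners of focal adhesions, 8 were on the array, with 3 higher, 2 lower and 3 not called, and a median of 0.26, shares close to the 38.1% and 22.6% of all 84 genes. TIAM1, an activator of the GTPase RAC1 that was first described in T lymphoma cells, rose by 5.22 (SE 0.46, limma adjusted p = 6.6e-09), from a control range of 0.000251 to 0.00285 to a range of 0.00686 to 0.0625, with no overlap. The adaptor GRB2 rose by 1.43 (SE 0.23, adjusted p = 2.5e-05) and the kinase MAPK3, or ERK1, by 1.01 (SE 0.23, adjusted p = 0.00068), which was lost without ACTA2 in the reference level (0.18, adjusted p = 0.38). CTNNB1, beta catenin, differed by 0.26 and was among the genes that did not pass the test. The lower genes were TAGLN and ACTC1, cardiac actin, and both are also among the smooth muscle markers above. ACTC1 fell by 1.03 (SE 0.39, adjusted p = 0.029), with 2 atherosclerotic wells below the ceiling, and lost its call without control rabbit 3 (-0.89), 13 (-0.92) or 21 (-0.88) or atherosclerotic rabbit 8 (-0.95) or 18 (-0.94). It also lost it without LDHA (-0.47, adjusted p = 0.28) or GAPDH (-0.74, adjusted p = 0.098) in the reference level.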

How the data were processed

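RNA from the lower abdominal aorta of 18 rabbits was grouped by the sample labels, which number the rabbits and name no plate or batch. The authors extracted the RNA with TRIzol and read SYBR green PCR plates on an Mx3000P instrument. The deposited values are the Ct of every well in cycles and the ratio of each gene to the reference level (2 to the power of minus deltaCt, with a Ct above 35 or an undetermined well set to 35). For the members this deposited ratio agreed within 0.00079 cycles with the deposited Ct minus a reference level taken as the geometric mean over the Ct of the 5 reference genes. A further deposited table, the authors' own fold changes between the groups, was not used.

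The log2 of the ratio, and the log2 ratio of each pair of genes within a rabbit, were compared with limma 3.58.1 (R 4.3.3, lmFit and eBayes, no covariates) with Benjamini-Hochberg adjustment over the 84 genes or the 3486 pairs and called at 0.05. Two-sided exact permutation tests ran over all 48620 assignments of 9 against 9 rabbits. With 1 well per gene and rabbit, p-values measure the spread between rabbits together with PCR error. Simulated data with known changes were used to check the limma fit. Named genes are the members, the genes of the 3 pathway lists, the 2 genes most alike to each member, and marker and reference genes, of which a few are not reported here. The members and lists were chosen with earlier results of these data known. The alternatives tried were leaving out reference genes or replacing them, raising or filtering late Ct values, exact tests, array weights and leaving out each rabbit, and, chosen after seeing the data, control rabbit 3 together with atherosclerotic rabbit 20. Of the RefSeq accessions of the 7 members, 4 were found in the RefSeq rabbit gene table used for names, and all 7 symbols were.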

Additional observations from a re-analysis of the deposited data

Results flagged for a closer look

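In 4 of 56 groups of 9 rabbits examined (the 7 members and their 21 pairs in each group), 1 rabbit lay far from the rest by Dixon's criterion, where chance alone gives about 1 in 20, or 2.8 of 56. The log2 ratio of ITGA4 was -3.39 in atherosclerotic rabbit 12, while the other 8 lay between -6.42 and -5.09. The same rabbit had a log2 ITGA4/ITGA5 of 0.73, against -2.65 to -0.97 in the others, and was the only animal with more ITGA4 than ITGA5 signal. The log2 ratio of PTK2 was -3.50 in control rabbit 3, against -4.05 to -3.89 in the other controls, and this rabbit also had the latest reference level, 24.53 cycles. The log2 ITGA6/ITGB1 was -4.98 in atherosclerotic rabbit 2, the only one of its group below the highest control rabbit, against -4.14 to -3.51 in the others.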

How the results depend on the processing

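ITGB1, ITGA1, ITGA4 and ITGA6 kept their direction and their call under all 33 alternatives, with log2 differences of -1.78 to -0.41, -2.40 to -1.03, 3.24 to 4.62 and 1.26 to 2.63. The call of ITGB1 was narrow without LDHA in the reference level (limma adjusted p = 0.0498). ITGA1 over ITGA4 stayed between -6.05 and -5.42 under its 24 alternatives. PTK2 reversed to 0.053 without LDHA in the reference level, and ITGA5 lost its call there (-0.69, limma adjusted p = 0.088), which left 2 members lower in place of 4. Without control rabbit 3 and atherosclerotic rabbit 20 together, PTK2 lost its call (-0.36, limma adjusted p = 0.074) and ITGA1/ITGA5 gained one (-0.76, adjusted p = 0.047). ITGA5/PTK2 gained a call in the exact test (adjusted p = 0.042), as did PTK2/ITGB1 (adjusted p = 0.049), which was also called with array weights (0.56, adjusted p = 0.039). The member pairs called numbered 15 to 18. Leaving out single rabbits gave 3 to 4 members lower, 15 to 16 member pairs called, 0 to 1 matrix ligands lower and 1 to 2 focal adhesion partners lower.

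The pathway lists moved with the reference level. Without ACTA2, 5 matrix ligands and 4 focal adhesion partners were lower. Without LDHA, 1 other integrin chain was lower, as ITGAV lost its call, and 5 focal adhesion partners were higher and 1 lower. Without GAPDH 1 focal adhesion partner was lower, without both ACTA2 and LDHA 1 matrix ligand was lower, and with the mean of the 63 detected genes 3 matrix ligands were lower. With only genes detected in every rabbit, 1 matrix ligand was higher and 1 focal adhesion partner lower, because COL5A3, VTN and ACTC1 were then not tested. Testing the ratio in place of its log2 left 1 focal adhesion partner lower. Leaving out control rabbit 3 and atherosclerotic rabbit 20 together also left 1 lower and made 1 other integrin chain higher, ITGB6, whose wells were all at the ceiling, and 4 matrix ligands higher in place of 3, the addition being FGA (0.55, adjusted p = 0.017), which had 2 wells below it. Apart from these, the cause of the changes was not tested.

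No paired analysis was possible because the control and atherosclerotic groups share no rabbit number. Single wells, an unknown efficiency of each assay and reference genes that differ between the groups limit how closely the size of each difference is known.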
